A study of Mus musculus with 2 samples.

Results

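A set of 9 stem cell homing genes was compared between Nrf2 knockout and wild-type KSL cells: the chemokine receptor genes Cxcr4, Cxcr2, Ccr1, Ccr2 and Ccr9, the selectin ligand genes Cd44 and Selplg, the sphingosine 1-phosphate receptor gene S1pr1 and the guidance receptor gene Robo4. They were chosen by symbol, as genes whose probe set carried exactly 1 gene symbol in the platform annotation, and all 9 were found among 19938 genes so named. KSL stands for lineage-negative marrow cells with c-Kit and Sca-1 on their surface, a fraction rich in haematopoietic stem and multipotent progenitor cells. The knockout group was a pool of marrow from 5 young healthy Nrf2-/- mice and the wild-type group a pool from 5 Nrf2+/+ mice; Nrf2 is the product of Nfe2l2, a transcription factor of the antioxidant response. Per the labels, mice of both groups were on the C57BL/6J background, were 8 to 10 weeks old, received no treatment that the labels name and were housed in a clean, germ-free facility. KSL cells were sorted from each pool, and their amplified RNA was hybridised to 1 Affymetrix Mouse Gene ST 1.0 array per genotype. Each gene therefore had 1 knockout and 1 wild-type value, with no replicate check, no SD over samples and no p-value. How and where the Nfe2l2 gene was disrupted is not given in the labels.

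Stem cells are held in the marrow and return to it from the blood through a small set of surface receptors. CXCR4 binds the stromal chemokine CXCL12 and retains stem cells in their niche, and ROBO4 acts beside it in anchoring them. PSGL-1, the product of Selplg, and glycosylated CD44 bind selectins on the vessel wall when cells roll before entry, while S1PR1 follows sphingosine 1-phosphate out of tissue into blood and lymph. CXCR2, CCR1 and CCR2 are best known from neutrophils and monocytes, where they guide cells to sites of inflammation and, for CXCR2 and CCR2, out of the marrow. CCR9 binds CCL25 and brings progenitors to the thymus.

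Levels are log2 intensities as deposited, so that 1 unit is a doubling, and a difference is log2 knockout minus log2 wild type. A gene passed the level filter where the mean of both arrays reached 6.57, the median over genes. Cxcr4, Cxcr2, Cd44, Selplg, S1pr1 and Robo4 passed, and Ccr1, Ccr2 and Ccr9 did not. The filter says nothing about detection, and weak signal makes the differences of the last 3 genes less sure. A probe set's own error in a difference had an SD of 0.32, or 0.17 by a robust estimate, over 515 genes measured by exactly 2 probe sets; it leaves out the spread between mice, sorts and amplifications.

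The genes for retention and rolling, and S1pr1, differed little between the genotypes, whereas Cxcr2 and, at weaker signal, Ccr2 had lower values in the knockout array. Of the 6 members past the filter, 5 (Cxcr4, Cd44, Selplg, S1pr1 and Robo4) lay within 0.2 of 0 on the log2 scale, as did 56.9% of all genes past the filter. Cxcr2 was 3.09-fold lower and Ccr2 1.99-fold lower in the knockout pool, and Ccr1, 1.43-fold lower, did not reach 1.5-fold. Among the 6 members past the filter, 1 reached 1.5-fold lower, 1 reached 2-fold lower and 0 reached 1.5-fold higher, against 4.3%, 0.762% and 2.34% of the 9970 genes past the filter. The gene counted both times as lower was Cxcr2, which entered the 6 only through its wild-type value, so these counts are no separate support for its difference. The median of these 6 differences was 0.02, beside −0.02 for the 9970 genes; their mean was −0.23, of the opposite sign, with Cxcr2 the only one of the 6 below 0. Over all 9 genes, whether past the filter or not, 2 were at least 1.5-fold lower, against 3.15% of 19938 genes. In RNA from sorted cells in bulk, fewer cells of a type and less RNA per cell cannot be told apart.

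**Figure D1:**
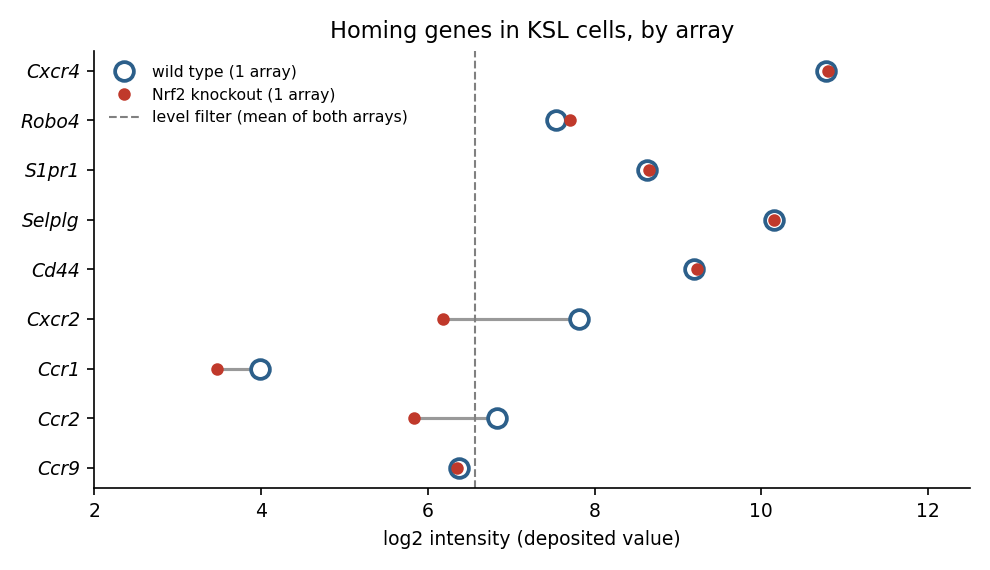
Log2 intensity of the 9 genes in the wild-type array (open blue circles) and the Nrf2 knockout array (filled red circles), joined by a line, with the level filter at 6.57 as a dashed line; each circle is 1 array. The circles overlap for Cxcr4, S1pr1, Selplg, Cd44 and Ccr9, and the red circle lies clearly to the left for Cxcr2, Ccr2 and Ccr1.

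As a check of the sample labels, the targeted gene Nfe2l2 stood at 9.07 in Nrf2-/- and 9.16 in Nrf2+/+ cells, a difference of −0.09, so this probe set did not separate the genotypes; without knowing the deleted part, it checks nothing. Kit, the gene of c-Kit, stood at 11.21 and 10.93 in the knockout and wild-type array in that order. Cd34 stood at 11.43 and 11.29, and Flt3 at 10.94 and 10.84. These levels describe the sorted fraction and do not show stem cell identity. Ly6a, which encodes Sca-1 and is among the genes the naming rule lists, was not analysed here. Of 18 KSL and stem cell genes measured, 14 passed the filter, with 6 lower, 8 higher and a median of 0.09. Mecom, as the mean of 2 probe sets, differed by −0.45, Runx1 by 0.36 and Meis1 by 0.35. Below the filter, the stem cell surface marker Slamf1 stood at 6.43 and 5.73, 1.63-fold higher in the knockout, and Tek at 6.03 and 6.58. Summed on the linear intensity scale, as in every sum given here, these 18 genes in the knockout array came to 110.7% of that in the wild-type array.

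Cxcr4, the receptor that holds stem cells in CXCL12-rich niches, had a log2 intensity of 10.80 in Nrf2-/- and 10.78 in Nrf2+/+ cells. The difference of 0.03 put the knockout level at 101.8% of wild type, and 57.6% of genes past the filter had a lower difference. It was far smaller than the probe-set error, so the arrays show no difference in Cxcr4 that they could resolve. Its ligand Cxcl12, made chiefly by stromal cells, was below the filter at 6.14 and 6.18. The scavenger receptor Ackr3, which also binds CXCL12, stood at 4.38 and 4.44, likewise below the filter.

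Robo4 was 7.71 in Nrf2-/- and 7.53 in Nrf2+/+ cells. This difference of 0.18 was the highest among the 9 genes and matched the robust probe-set error. Endothelial cells express Robo4 as well, and the endothelial and stromal list, of which Robo4 is a member, had a median of 0.10 over its 7 genes past the filter, with Vwf at 0.63 and Emcn at −0.19; its summed intensity in the knockout array was 99.2% of the wild-type value. The endothelial cadherin gene Cdh5, at 5.76 and 5.62, and the VEGF receptor gene Kdr, at 4.90 and 4.63, were below the filter. Tek, at 6.03 and 6.58, and Vcam1, at 6.03 and 6.52, were below it too and had lower knockout values. Over all 13 genes of the list, Robo4 included, 6 were lower and 7 higher. Among the other ROBO receptors and the SLIT ligands, 0 of 6 genes passed the filter. Robo1 stood at 4.98 and 5.26, and Slit2, a ligand of ROBO receptors, at 4.59 and 4.72.

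S1pr1 was 8.65 in Nrf2-/- and 8.63 in Nrf2+/+ cells, a difference of 0.02. Most other genes of its pathway had slightly lower values in the knockout array, mostly by less than the probe-set error of 0.32. Of 12 further genes of the sphingosine phosphate axis, 10 passed the filter, 8 with a lower and 2 with a higher knockout value, with a median of −0.12 and 0 at 1.5-fold in either direction. Of all 9970 genes past the filter, 5272 had a lower knockout value, and their median was −0.02. Klf2, a transcription factor that drives S1pr1 in lymphocytes, stood at 8.68 against 9.01, a difference of −0.33. The phosphatase gene Sgpp1 differed by 0.33. Cd69, whose product takes S1PR1 off the cell surface, differed by −0.32. The exporter gene Spns2 differed by −0.27 and the receptor gene S1pr4 by −0.01.

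Selplg stood at 10.15 in both arrays, the smallest difference of the 9 genes. Cd44, which binds hyaluronan and, when suitably glycosylated, E-selectin, stood at 9.23 in Nrf2-/- and 9.19 in Nrf2+/+ cells, a difference of 0.04. Both differences were smaller than the probe-set error.

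Selectins bind these proteins only after sugars and sulphate have been added, so the enzymes for that were read next. All 13 were measured and 12 passed the filter, 4 lower and 8 higher, with a median of 0.05 and 0 at 1.5-fold in either direction. The sialyltransferase gene St3gal4 came nearest to it, at 7.29 against 7.86, a difference of −0.57. Its relative St3gal6 differed by 0.29. Of the other enzymes that act on PSGL-1, the fucosyltransferase gene Fut7 differed by −0.14, the core 2 branching enzyme gene Gcnt1 by 0.20, the core 1 enzyme gene C1galt1 by −0.13, and the tyrosine sulphotransferase genes Tpst1 and Tpst2 by 0.13 and −0.19. Among 5 selectins or other selectin ligands past the filter, 3 were lower and 2 higher, with a median of −0.05. Glg1, the gene of E-selectin ligand 1, differed by −0.22 and Emcn by −0.19.

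Cxcr2, the receptor for CXCL1, CXCL2 and CXCL5 on neutrophils, was 6.19 in Nrf2-/- and 7.81 in Nrf2+/+ cells. The difference of −1.63 was the lowest of the 9 genes, and 0.160% of genes past the filter had a lower one. The knockout value was itself under the filter level, where the size of a difference is less sure. Cxcr2 passed the filter only through its wild-type value. Its near relative Cxcr1, also on neutrophils and below the filter, stood at 5.90 and 6.26, a difference of −0.35.

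Most markers of mature neutrophils had lower values in the same array. Of 18 neutrophil genes measured, 14 passed the filter; 13 of the 14 were lower, 11 at least 1.5-fold, with a median of −1.46. Retnlg differed by −2.66, Lcn2 by −2.10 and Mmp8 by −2.00. Retnlg, Mmp8 and Il1r2 passed only through their wild-type values, with knockout values of 5.36, 5.74 and 6.52. Over all 18 genes, with no filter, 16 were lower and the median was again −1.46. The summed intensity of the 18 genes was 8052 in Nrf2-/- and 18111 in Nrf2+/+ cells, or 44.5%. Values on these arrays have a floor above 0, so no marker could be listed at 0. Ly6g, a defining neutrophil surface marker, was below the filter at 5.41 and 4.90, and Csf3r, the receptor for G-CSF, stood at 9.06 and 8.94. The part of neutrophil RNA in the Cxcr2 difference was not tested.

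Ccr2, which binds CCL2 and CCL7 and lets monocytes leave the marrow, was 5.83 in Nrf2-/- and 6.83 in Nrf2+/+ cells, a difference of −0.99. Ccr1, a receptor for CCL3, CCL5, CCL6 and CCL9, was 3.47 against 3.99, a difference of −0.52. Both failed the filter and are therefore set against the 9968 genes below it, of which 2.0% were at least 1.5-fold lower. In that population 0.441% of genes had a lower difference than Ccr2 and 2.82% a lower one than Ccr1. The Ccr2 difference exceeded the probe-set error and the Ccr1 difference was nearer to it, but that error was estimated only on genes past the filter.

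Monocyte and macrophage markers were mostly lower in the knockout array too. Of 16 measured, 9 passed the filter, with 8 lower, 5 of them at least 1.5-fold, 1 at least 1.5-fold higher and a median of −0.67. Ccl6 differed by −1.52, Ms4a6c by −1.00 and Ms4a6b by −0.80, whereas the macrophage gene Cd68 was higher by 0.63. Ccl6 and Fn1 passed only through their wild-type values, with knockout values of 6.51 and 6.41. Over all 16 genes, with no filter, 12 were lower and the median was −0.42. Their summed intensity was 2239.5 in Nrf2-/- and 2871.8 in Nrf2+/+ cells, or 78.0%. The weakest marker in the knockout array, Mrc1, stood at 4.70. The part of monocyte RNA in the Ccr2 and Ccr1 differences was not tested.

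Ccr9 was 6.35 in Nrf2-/- and 6.38 in Nrf2+/+ cells, a difference of −0.03. It was below the filter and differed by less than the probe-set error, and 36.8% of genes below the filter had a lower difference. Its ligand gene Ccl25 was higher by 0.25, at 7.41 against 7.16, as the mean of 2 probe sets. Ccr9 is carried by lymphoid-primed progenitors and plasmacytoid dendritic cells, whose marker Siglech stood at 6.44 and 6.16, below the filter. The dendritic list, which holds Ccr9, had a median of 0.05 over 6 genes past the filter, with H2-Eb1 at −0.45, H2-Ab1 at 0.25 and H2-Aa at 0.25, and a knockout sum at 105.5% of wild type. For T and NK markers the median was 0.04 over 4 genes and the sum 89.5%, with Nkg7 at −0.48, Thy1 at 0.36 and Prf1 at 0.19. Over all 12 T and NK genes, with no filter, 8 were lower and 4 higher, with a median of −0.12. At least 1.5-fold lower were 2, Gzma and Cd3d, both below the filter, against 3.15% of all genes. For B lineage markers the median was 0.18 over 5 genes past the filter and the sum 102.4%, with Cd79b at −0.79, Ly6d at 0.67 and Vpreb2 at 0.53. For erythroid markers they were 0.05 over 4 genes and 95.6%, with Car1 at −0.75, Tfrc at 0.27 and Ermap at 0.07.

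**Figure D2:**
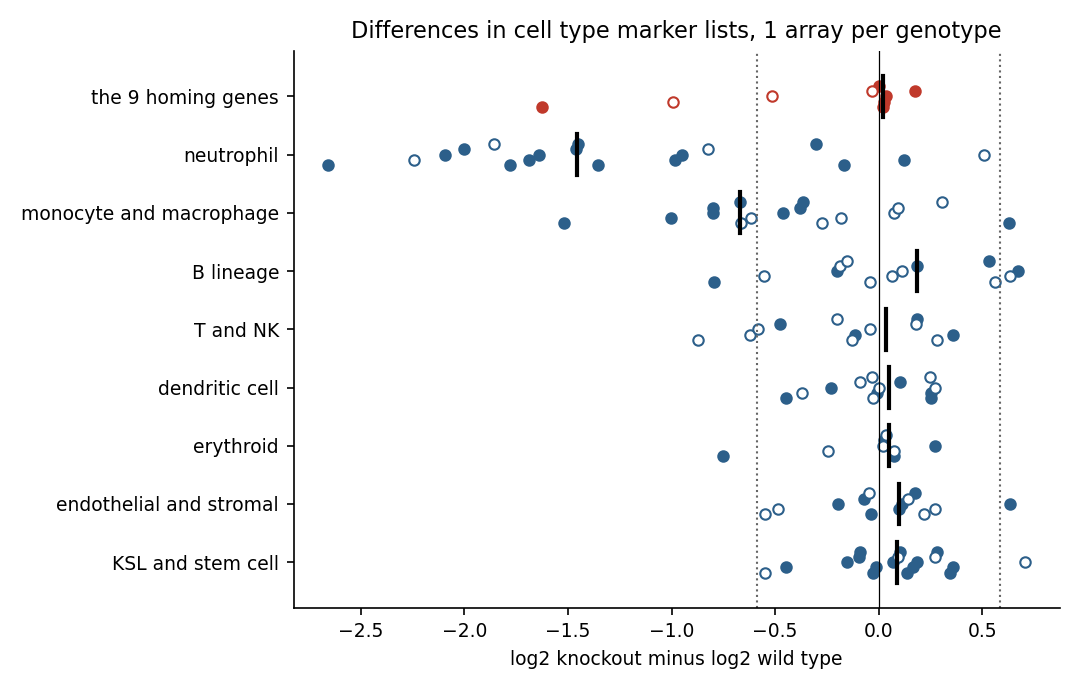
Difference in log2 intensity, knockout minus wild type, for the 9 homing genes (red) and the genes of 8 marker lists (blue); filled points passed the level filter, open points did not, black bars are medians of the filled points and dotted lines mark 1.5-fold. The neutrophil and monocyte medians lie at −1.46 and −0.67, and the median of the homing genes at 0.02.

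**Figure D3:**
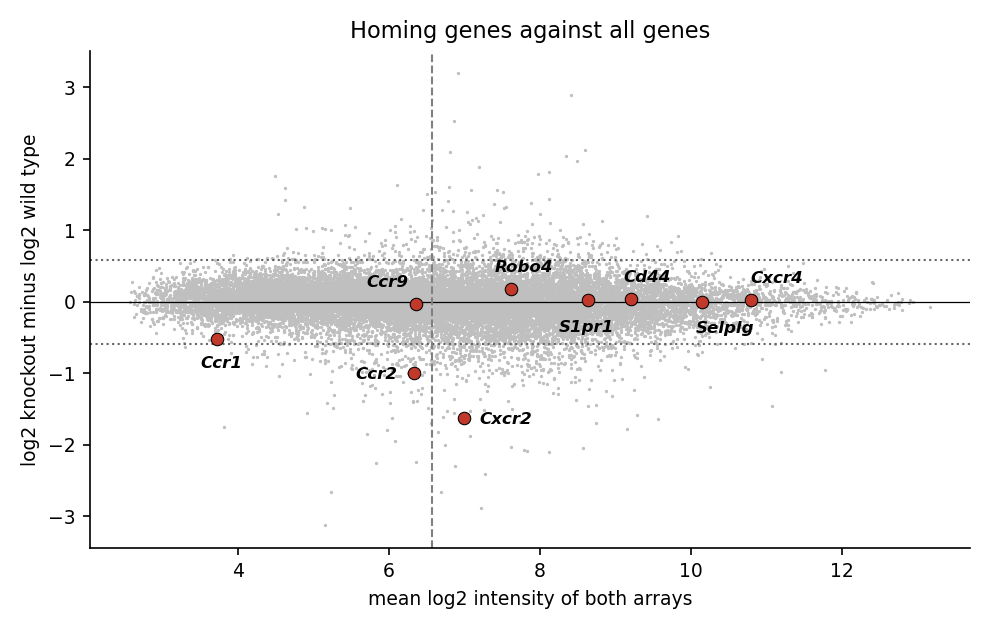
Difference in log2 intensity, knockout minus wild type, against the mean log2 intensity of both arrays for 19938 genes (grey), with the 9 homing genes in red; the dashed line is the level filter and dotted lines mark 1.5-fold. Cxcr2 and Ccr2 lie below the lower dotted line, Ccr1 just above it, and the other members close to 0.

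The ligands of the receptors were next compared. Of 17 ligand genes measured, 7 passed the filter. The knockout value was the lower for 6 of them, by 1.5-fold or more for 4, and the median difference was −0.59. A value lower by 1.5-fold or more was found for 4.3% of the 9970 genes that passed the filter. Over all 17 ligand genes, with no filter, 11 were lower and 5 higher, with a median of only −0.11, and Ccl8 did not differ. Of the 10 ligand genes below the filter, 0 reached 1.5-fold in either direction. Cxcl2, a CXCR2 ligand released by activated myeloid cells, stood at 8.02 against 9.47, a difference of −1.44. The CCR1 ligands past the filter all had lower knockout values, though by unequal amounts. Ccl6 stood at 6.51 against 8.02, Ccl5 at 7.53 against 8.24 and Ccl3 at 10.41 against 11.00, differences of −1.52, −0.70 and −0.59. Ccl9, at 7.81 against 8.10, differed by −0.30, within the probe-set error. Ccl6 is also in the monocyte list, and its knockout value was below the filter level. The CCR2 ligand genes Ccl2 and Ccl7 were below the filter, at 5.83 and 5.44 in the knockout and 6.12 and 5.22 in the wild-type array.

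Chemokine receptors outside the 9 genes were mostly weak. Of 17 measured, 3 passed the filter, 2 of them lower, with a median of −0.34 and 0 at 1.5-fold in either direction. Cx3cr1, the fractalkine receptor of monocytes, stood at 7.56 against 7.93, a difference of −0.37. Ccrl2, which binds the chemoattractant chemerin, stood at 9.17 against 9.52, a difference of −0.34. The remaining gene past the filter, Cxcr6, differed by 0.01. Below the filter, 0 of 14 reached 1.5-fold in either direction.

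The machinery that carries and ends chemokine receptor signals varied about as much as other genes, with 14 of 26 within 0.2 of 0. Of 28 such genes measured, 26 passed the filter, 17 lower and 9 higher, with a median of −0.07. At least 1.5-fold lower was 1 gene of the 26, against 4.3% of all genes past the filter. It was Rhoh, a blood-cell GTPase that restrains RAC, at 8.05 against 8.82. The inhibitory G protein subunit genes Gnai2 and Gnai3, through which these receptors signal, differed by −0.07 and −0.01. The arrestin gene Arrb1, whose product ends receptor signalling, was higher by 0.51, and its relative Arrb2 differed by −0.20. Rac2, which stem cells need for migration and lodging, differed by −0.28. Dpp4, a surface protease that cleaves CXCL12, was higher by 0.37. Below the filter, the receptor kinase gene Grk5 stood at 5.19 against 6.36.

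Across the 100 measured genes of the 7 homing lists other than the 9, 63 passed the filter, with 40 lower, 23 higher and a median of −0.08. At least 1.5-fold lower were 5 of the 63 and at least 1.5-fold higher 0, against 4.3% and 2.34% of all genes past the filter. Of the 5, Ccl6, Cxcl2, Ccl5 and Ccl3 were ligands and Rhoh a signalling gene.

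**Figure D4:**
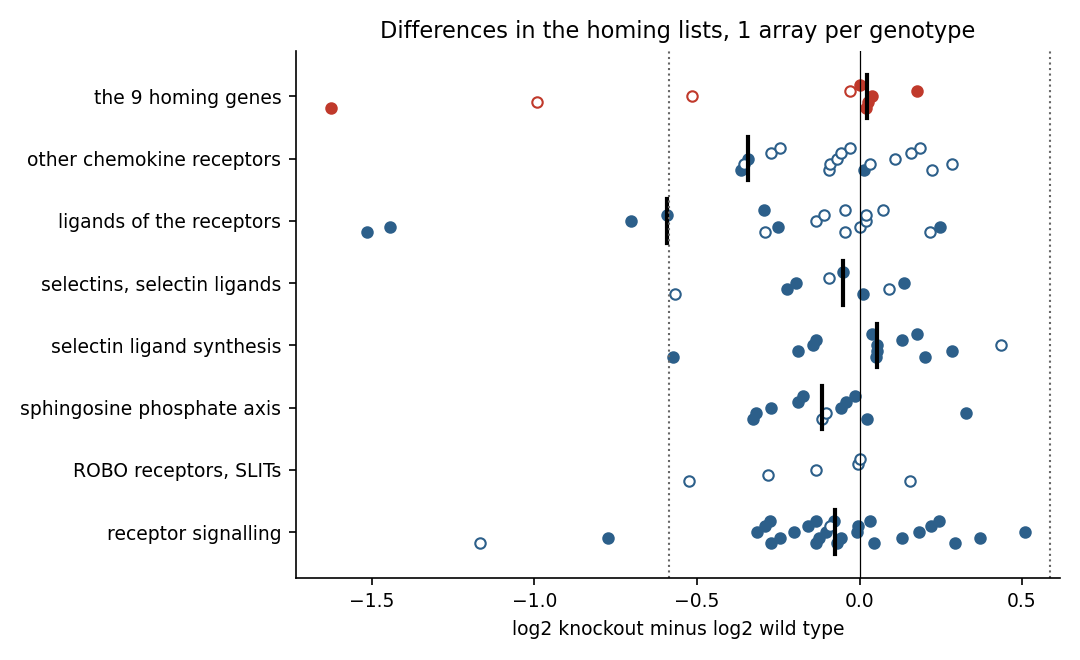
Difference in log2 intensity, knockout minus wild type, for the 9 homing genes (red) and the genes of 7 related lists (blue); filled points passed the level filter, open points did not, black bars are medians of the filled points and dotted lines mark 1.5-fold. Cxcr2 at −1.63, Ccl6 at −1.52 and Cxcl2 at −1.44 are the lowest points.

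Ccr9, Ccr1 and Ccr2 belong to the chemokine receptor cluster of chromosome 9, so their neighbours were read in the gene order of the GRCm38.p6 annotation. From Lztfl1 through Ccr9, Fyco1, Cxcr6, Xcr1, Ccr1, Ccr1l1, Ccr3 and Ccr2, 9 protein-coding genes were measured. At least 1.5-fold lower was 1 of them, Ccr2, against 3.15% of all 19938 genes. Ccr1l1 and Ccr3, which lie between Ccr1 and Ccr2, differed by −0.25 and −0.27. At the Ccr9 end, Lztfl1, Fyco1, Cxcr6 and Xcr1 differed by −0.10, −0.11, 0.01 and −0.09. The differences thus varied along the cluster. Only Lztfl1, Fyco1 and Cxcr6 of these 9 genes passed the level filter.

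**Figure D5:**
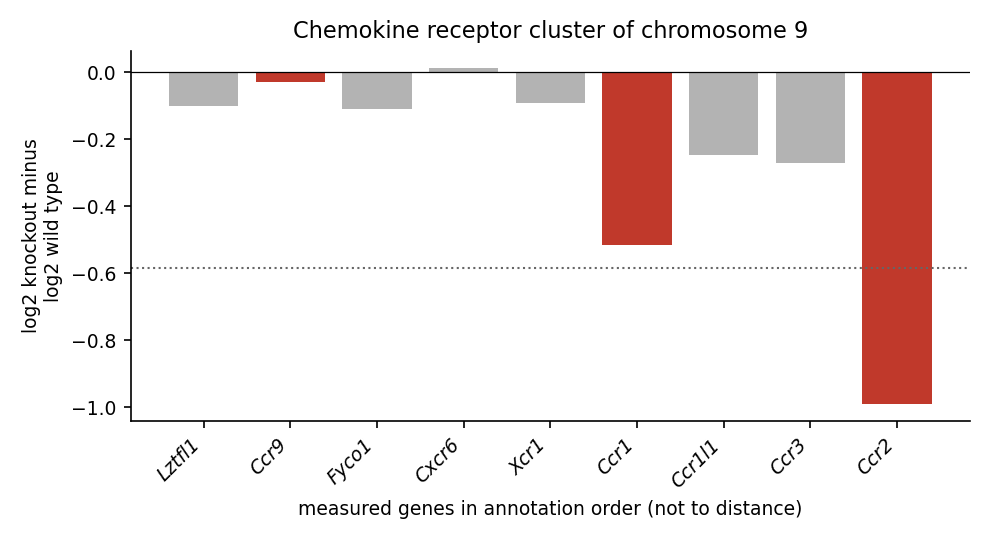
Difference in log2 intensity, knockout minus wild type, for 9 protein-coding genes of the chromosome 9 chemokine receptor cluster in annotation order, with bars from 0, members of the homing set in red and other genes in grey; the dotted line marks 1.5-fold lower. Ccr2 reaches −0.99 and Ccr1 −0.52, and the other bars lie between −0.27 and 0.01.

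Promoter sequence was read for what the rule had not used. RefSeq windows of GRCm38.p6 were matched for 7 of the 9 genes, and the 250 bases before the annotated start were taken from each. Shown here are Cxcr4, whose levels differed little, and Cxcr2 and Ccr2, whose knockout values were lower, because they differ most plainly in CpG content; capitals mark CpG dinucleotides. The Cxcr4 window is chr1:128592300-128592549 on the minus strand, that of Cxcr2 chr1:74153744-74153993 on the plus strand and that of Ccr2 chr9:124101933-124102182 on the plus strand, each written 5′ to 3′.
Cxcr4: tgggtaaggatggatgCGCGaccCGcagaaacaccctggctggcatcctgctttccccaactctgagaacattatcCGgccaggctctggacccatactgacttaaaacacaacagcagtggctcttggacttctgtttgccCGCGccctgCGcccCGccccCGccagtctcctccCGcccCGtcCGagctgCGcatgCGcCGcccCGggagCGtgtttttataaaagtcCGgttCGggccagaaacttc
Cxcr2: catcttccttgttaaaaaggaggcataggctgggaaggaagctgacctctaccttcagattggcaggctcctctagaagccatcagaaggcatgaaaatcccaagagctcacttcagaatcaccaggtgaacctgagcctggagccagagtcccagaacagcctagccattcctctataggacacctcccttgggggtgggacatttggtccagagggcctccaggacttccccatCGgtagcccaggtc
Ccr2: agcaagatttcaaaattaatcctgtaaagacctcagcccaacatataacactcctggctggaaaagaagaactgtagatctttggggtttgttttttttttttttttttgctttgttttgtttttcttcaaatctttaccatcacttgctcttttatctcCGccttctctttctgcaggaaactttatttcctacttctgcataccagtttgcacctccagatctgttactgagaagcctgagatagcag

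The Cxcr4 window held 19 CpG dinucleotides and 61.2% G and C, and 80.3% of all 32851 windows of this length held fewer CpGs. Cxcr2, Ccr1 and Ccr2 held 1 CpG each, with 7.87% of windows holding fewer, and 54.4%, 43.6% and 37.2% G and C. Robo4 held 2, Ccr9 3 and Cd44 5, beside a median of 6 over all windows. Cxcr2 and Ccr2, at least 1.5-fold lower, thus had few CpGs, but Robo4 and Ccr9, with little more, differed by 0.18 and −0.03. Among genes past the filter whose richest window held at most 1 CpG, 8.59% of 163 were at least 1.5-fold lower, compared with 4.09% of 7900 genes with more, while the medians were −0.02 in both. The 163 genes include Cxcr2, and the CpG count was chosen after the differences were seen. A link between CpG content and lower knockout values was therefore not tested.

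Motifs were searched on both strands of the same windows. The antioxidant response element core bound by NRF2, TGACNNNGC, was found in 0 of the 7 windows and in 10.2% of all windows; this says only that these letters are not in those 250 bases. GCATGCG, the core of a site of the factor NRF1, was found in Cxcr4 alone among the 7, from 57 to 51 bases before the start with an overlapping match on the other strand, and in 3.02% of all windows. Cxcr4 was also the only one of the 7 with TATAAA, from 30 to 25 bases before the start, with an overlapping match on the other strand; 12.4% of all windows held it. GAGGAAG, the core of a PU.1-type ETS site, was found in Cd44 alone, from 221 to 215 bases before the start, and in 10.6% of all windows. A match describes letters and is not evidence of binding.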

How the data were processed

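Per the labels, total RNA of sorted KSL cells, 1 pool of 5 mice per genotype, was amplified and labelled with NuGEN Ovation kits. The authors deposited 1 value per probe set and array, read here as log2 intensity; the base was taken from the values, which reach 13.8. The submitters' processing notes name Partek; no source used here states the background correction or the normalization. Sorted values of both arrays differed by at most 0.0866, so a shift of all genes one way could be hidden. Of 28853 probe sets, 21789 had 1 symbol, 1621 several and 5443 none. Probe sets of a gene were averaged; each of the 9 genes had 1. The members and lists were chosen with earlier results of these data known. Genes were named by rule: all 9 members; in each homing list those past the filter and at least 1.5-fold, otherwise the 2 with the largest difference; the 3 largest of each marker list; and Kit, Ly6a (not analysed here), Cd34, Flt3, Cxcl12, Ackr3, Robo1 and Slit2. Other genes, and the CpG count and the motifs apart from the antioxidant element, were chosen after their values were seen. The probe-set error was to be given as the gap between 2 probe sets divided by 2, which has an SD of 0.22; the SD of 0.32 is the same error for a single probe set. Protein sequences were not used here. Alternatives covered scaling, probe-set choice, the filter, mean against median and leaving out Cxcr2. The counting was tested on simulated data. Computation used Python 3.11.15, numpy 2.4.6, pandas 2.3.3 and statsmodels 0.14.6. The number of arrays limits the precision.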

Additional observations from a re-analysis of the deposited data

How the results depend on the processing

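With 16 results recomputed, 76 of 82 alternative values moved by less than 0.32, the probe-set error, or, for counts, by at most 1.5 times. Much of this was fixed in advance, because sorted values of both arrays differed by at most 0.0866 and rescaling could move a difference only a little. The tolerance of 0.32 is wide for the median of the members past the filter, whose 0.02 became −0.23 when the mean was taken, a turn of sign. The sign of every one of the 9 members was kept under each rescaling, by loess on mean level, quantile normalization or median centring. Taking the probe set of highest mean could change no member's sign or value, because each of the 9 had 1 probe set. Across the main and rescaled values, Cxcr4 ranged from 0.03 to 0.05, Robo4 from 0.18 to 0.21 and Cxcr2 from −1.63 to −1.61. Ccr2 ranged from −1.00 to −0.97 and Ccr1 from −0.56 to −0.50. The count of members at least 1.5-fold lower, reported as 1, was 2 with no level filter, where Ccr2 enters. It was 0 with the filter at the 75th percentile, which Cxcr2 does not pass, and 0 without Cxcr2. The count at least 2-fold lower, reported as 1, was likewise 0 under the 75th percentile filter and 0 without Cxcr2. Both counts therefore rest on Cxcr2. Of the homing lists, 3 genes in place of 5 were at least 1.5-fold lower at the 75th percentile filter. Under median centring, quantile normalization and loess alike, the split of lower to higher genes was 7 to 3 in place of 8 to 2 for the sphingosine phosphate axis 15 to 11 in place of 17 to 9 for receptor signalling and 5 to 9 in place of 6 to 8 for KSL and stem cell markers, and 3 ligands in place of 4 were at least 1.5-fold lower. With the probe set of highest mean, the B lineage median was 0.36 over 4 genes in place of 0.18 over 5. Under the same choice, 1 of 14 KSL and stem cell genes in place of 0 was at least 1.5-fold lower, Mecom being the only gene of that list with 2 probe sets. No paired analysis was possible because each genotype had 1 array. For the same reason no array could be left out, and the spread between mice remains unmeasured.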
